A study of Arabidopsis thaliana with 12 samples.

Results

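The comparison described here sets seedlings of the b''ab''b double mutant of Arabidopsis thaliana against the wild type Col-0 after 1 h of red light. It holds 6 of the 12 libraries of the study, chosen by their labels: 3 of the double mutant and 3 of the wild type. All groups spent 3 days in the cold, had white light (25 µmol per second and square metre) for 3 h and then grew for 4 days in darkness at 22 °C on medium without sucrose. The red light groups were then lit without a break for 1 h with 8 µmol of red light per second and square metre, while the other 6 libraries, 3 of each genotype, come from seedlings kept in the dark. RNA of whole seedlings was counted as 3′ tags, reads taken close to transcript 3′ ends. The labels name the mutant by its 2 genes, B''α and B''β, and the sources used here give neither the alleles nor the number of lines or any pooling of seedlings. Nothing says that the 3 replicates of a group were separate cultures, so p-values measure only how these samples spread, and that spread may be technical.

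B''α and B''β are regulatory subunits of protein phosphatase 2A (PP2A), an enzyme built from a scaffold, a catalytic and a regulatory subunit, of which the last chooses the substrates. B'' subunits carry calcium-binding EF hands, and these ones are known to bind HMG-CoA reductase, the enzyme that commits carbon to the mevalonate pathway. In dark-grown seedlings the PIF factors keep the plant elongated and pale. Red light activates phytochromes, which lead to phosphorylation and loss of PIFs and start greening.

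The 6 red light libraries held 3841449 to 4619450 counts. Levels are given in CPM, counts scaled to library size. A count of 0 allows a level of up to 3 counts, for counting error only. That is from 0.674 CPM in wild type replicate 3 to 0.831 CPM in double mutant replicate 2. In a principal component analysis of these 6 libraries the first component held 23.5% of the variance, with the wild type at −19.4 to −12.5 and the double mutant at 7.93 to 26.3. The second component held 21.9% and did not separate the genotypes. Tags cannot tell fewer cells of a type from less RNA per cell in whole seedlings.

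Few genes were found to differ between the genotypes after red light. Of 18487 genes tested with edgeR, 15 passed an adjusted p under 0.05, which is 0.0811% of them. In the double mutant 10 of these were higher (0.0541%) and 5 lower (0.027%). The phosphate sensor gene SPX1 and the chaperone genes BAG7 and HSP90.1 were higher, and the dark-inducible gene DIN2 and the orphan gene QQS were lower, besides B''α itself. The sizes of the 15 differences ran from 0.51 to 6.12 on the log2 scale, and 4 of the higher and 4 of the lower genes differed at least 2-fold. The libraries of the 2 genotypes did not overlap for any of the 15, which also held for 2054 of all tested genes (11.1%). The number called higher was 5, 6 or 3 without wild type red replicate 1, 2 or 3 and 4 without double mutant red replicate 1 or 3, while a fit on the red light libraries alone called 19 higher and 24 lower. At an unadjusted p under 0.05, 849 genes (4.59%) passed, 399 higher (2.16%) and 450 lower (2.43%).

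**Figure D1:**
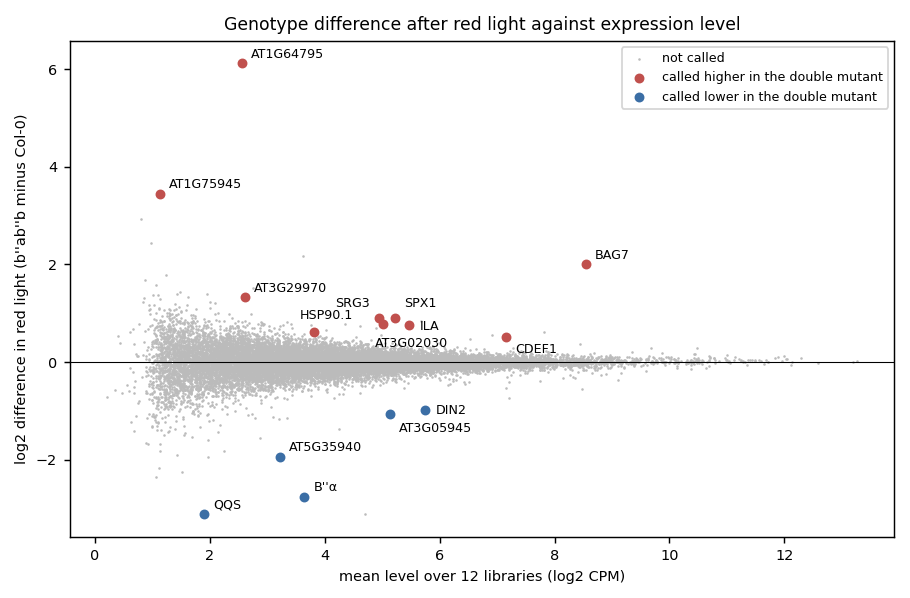
Each point is 1 of 18487 tested genes, with its mean level over all 12 libraries (log2 CPM) on the horizontal axis and the log2 difference of double mutant minus wild type in red light on the vertical axis. The 10 genes called higher are red, the 5 called lower are blue, and the median of all genes is 0.001.

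The targeted genes came first. B''α (AT5G44090, chromosome 5, 17742765 to 17748526 in TAIR10.1) stood at 27.9, 30.1 and 28.8 CPM in the wild type and at 4.58, 3.88 and 4.24 CPM in the double mutant. Every mutant library lay far below every wild type library. The mean fell from 28.9 ± 1.08 to 4.23 ± 0.351 CPM (SD, n = 3), a log2 difference of −2.76 ± 0.18 (SE) with an edgeR adjusted p of 1.53e-09. B''β (AT1G03960, chromosome 1) had 8, 10 and 16 counts in the wild type and 9, 5 and 3 in the double mutant. The B''β counts of the genotypes overlapped, and the log2 difference was −0.96 ± 0.43 (edgeR adjusted p = 0.999). In the dark B''β had 20, 18 and 12 counts in the wild type and 3, 4 and 7 in the double mutant, without overlap (log2 −1.87 ± 0.42, edgeR adjusted p = 0.226). A tag outside a disrupted stretch checks nothing, so these counts do not show whether B''β is disrupted. The other B'' genes had log2 differences of −0.58 ± 0.29 (B''γ), −0.11 ± 0.13 (B''ε), −0.08 ± 0.10 (TON2) and −0.05 ± 0.15 (B''δ). None of these passed, and B''γ alone had libraries without overlap, at 4.90, 4.61 and 5.84 CPM against 3.21, 3.05 and 3.99 CPM. None of the 21 other PP2A subunit and partner genes passed either, with a median log2 difference of −0.022 and PP2A-4, a catalytic subunit gene, lowest in p (log2 −0.20 ± 0.08, edgeR adjusted p = 0.999).

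No gene next to the targeted loci passed the test. Of the 20 annotated genes nearest to B''α, 15 were tested, with log2 differences from −3.11 to 0.29. The lowest belonged to AT5G44060, which had 1896, 93 and 101 counts in the wild type and 97, 70 and 70 in the double mutant. That difference sat in 1 wild type library. Of the 20 genes nearest to B''β, 14 were tested, with log2 differences from −0.82 in AT1G03990 to 0.54 in ABCI19. ABCI21, next but one to B''α, had a log2 difference of 0.04 ± 0.08, and ABCI20 one of 0.14 ± 0.09 (edgeR adjusted p = 0.999 for each).

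Of the phosphate starvation list 1 gene, SPX1, was called, and SRG3, which is on no list, is described with it because its enzyme class recycles phospholipids. When phosphate is short, the factor PHR1 switches on genes for phosphate uptake, recycling and lipid exchange, and SPX proteins hold PHR1 back when phosphate is plentiful. SPX1 (AT5G20150, chromosome 5, 6802282 to 6803655) stood at 66.6, 77.5 and 65.2 CPM in the wild type and at 145, 114 and 132 CPM in the double mutant. All 3 mutant libraries were above all 3 wild type libraries. The means were 69.8 ± 6.71 CPM in the wild type and 1.88 times that in the double mutant (n = 3), a log2 difference of 0.91 ± 0.12 (SE; edgeR adjusted p = 2.83e-04). SRG3 (AT3G02040, chromosome 3, 348167 to 350010), a glycerophosphodiester phosphodiesterase gene, had 22.5, 36.0 and 27.9 CPM in the wild type and 62.3, 44.3 and 54.9 CPM in the double mutant. Its groups did not overlap, with wild type replicate 2 nearest to the mutant (log2 0.91 ± 0.16, edgeR adjusted p = 0.0161). The call of SRG3 was lost without wild type replicate 1 or 3 or double mutant replicate 1 or 3 of the red light groups, with adjusted p up to 0.231.

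The 250 bases before the annotated starts of SPX1, SRG3 and DIN2 are shown because these genes were called in red light and not in the dark and differ in matches to P1BS, the motif that PHR1 binds. They are from RefSeq TAIR10.1, at chr5:6802032-6802281 on the plus strand (SPX1), chr3:350011-350260 on the minus strand (SRG3) and chr3:22216290-22216539 on the plus strand (DIN2), and capitals mark each match to GNATATNC, which reads the same on both strands.
SPX1: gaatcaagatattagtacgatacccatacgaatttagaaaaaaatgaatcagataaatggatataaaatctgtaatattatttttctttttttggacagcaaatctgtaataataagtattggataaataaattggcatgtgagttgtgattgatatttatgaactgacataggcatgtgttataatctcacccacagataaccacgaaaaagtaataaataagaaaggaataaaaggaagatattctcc
SRG3: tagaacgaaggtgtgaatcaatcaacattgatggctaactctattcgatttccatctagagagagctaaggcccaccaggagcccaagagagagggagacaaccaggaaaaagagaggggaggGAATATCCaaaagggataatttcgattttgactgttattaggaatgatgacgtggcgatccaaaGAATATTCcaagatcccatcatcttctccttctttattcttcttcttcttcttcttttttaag
DIN2: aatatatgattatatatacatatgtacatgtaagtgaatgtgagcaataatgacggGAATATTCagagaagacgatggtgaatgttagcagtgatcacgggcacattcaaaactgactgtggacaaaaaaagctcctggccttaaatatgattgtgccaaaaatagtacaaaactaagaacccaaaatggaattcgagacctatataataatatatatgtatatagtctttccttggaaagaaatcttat
SRG3 had 2 matches, starting 127 and 63 bases before the gene start, and DIN2 had 1 at 194 bases. SPX1 had none in this window. The motif stood in the same window of 5.46% of 27443 protein-coding genes, in 1 of the 10 genes called higher, in 1 of the 4 protein-coding genes called lower and in 2 of 14 phosphate starvation genes. The nearer SRG3 match and the DIN2 match also spell GAANNTTC, a heat shock element found in 9.55% of the windows. The window of BAG7 and that of HSP90.1 held neither motif. Both windows overlap exons of another annotated gene, AT5G62400 for BAG7 and AT5G52630 for HSP90.1. Sequence further upstream was not searched, so these windows do not stand for whole promoters. No window of a called gene held a G-box (CACGTG), which 6.49% of all windows had.

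The other phosphate starvation genes leaned the same way as SPX1 but did not pass. Of 14 listed genes 11 were tested, 1 was called higher and none lower, and all 11 had a positive log2 difference, with a median of 0.201 against 0.001 over all tested genes. The median was lowest without wild type red replicate 1 (0.11) and highest without wild type red replicate 3 (0.32), and it also fell without wild type red replicate 2. PS2, a phosphate-starvation phosphatase gene, had 4, 11 and 5 counts in the wild type and 22, 24 and 23 in the double mutant, without overlap (log2 1.79 ± 0.41, edgeR adjusted p = 0.208). The transporter gene PHT1;4 had 4.65, 4.88 and 6.29 CPM in the wild type and 8.70, 8.03 and 10.2 CPM in the double mutant. Those groups too were apart (log2 0.76 ± 0.23, edgeR adjusted p = 0.694). SQD2, which makes the sulfolipid that replaces phospholipid, had a log2 difference of 0.28 ± 0.12, SPX2 one of 0.25 ± 0.13 and PHR1 itself one of 0.05 ± 0.10. In all, 4 of the 11, SPX1 among them, had mutant libraries above all wild type libraries, which 5.69% of all tested genes had. The members of this and the other lists were chosen with earlier results of these data known, so such counts are no independent support. SPX3, IPS1 and MGD3 had too few counts to be tested, at most 7 in a library. In the dark the median of the list was 0.03.

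AT3G02030, annotated as a transferase gene, lies tail to tail with SRG3 and shares 681 bases with it on the other strand. It had 34.5, 33.0 and 33.3 CPM in the wild type and 65.7, 48.5 and 59.7 CPM in the double mutant. Its mutant libraries were all higher, with a 1.73-fold difference (log2 0.79 ± 0.14, edgeR adjusted p = 0.0148). The sources used here do not state the strand setting of the counting, so reads of SRG3 and AT3G02030 cannot be told apart where they overlap. The call of AT3G02030 was lost without wild type replicate 1, 2 or 3 or double mutant replicate 1 or 3, with adjusted p up to 0.362.

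Of the chaperone list 2 genes were called, both higher. Heat shock proteins refold damaged proteins in the cytosol, while BAG7 is a co-chaperone held at the endoplasmic reticulum. BAG7 (AT5G62390, chromosome 5, 25051978 to 25054444) stood at 223, 465 and 173 CPM in the wild type and at 1130, 915 and 1400 CPM in the double mutant. The lowest mutant library was well above the highest wild type library, and the spread within each genotype was wide. The mean was 4.01-fold higher, at 1150 ± 244 against 287 ± 156 CPM (SE of the log2 difference 0.35, edgeR adjusted p = 0.0143). The call was lost with DESeq2 and without wild type replicate 1 or 3 or double mutant replicate 1 or 3, with log2 differences of 1.74 to 2.53 and adjusted p up to 0.297. In the stretch of 100 kb that holds BAG7, 4 of 16 genes, BAG7 among them, had 1 library at 2 or more times the next of its group, against 0.82% of 15243 genes in the genome. Of the others, AT5G62290 had 34, 32 and 201 counts in the wild type and 26, 18 and 24 in the double mutant, and AT5G62440 had 28, 18 and 21 against 31, 19 and 139. These genes were singled out after their values were seen, and whether the unevenness of the stretch bears on BAG7 was not tested.

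HSP90.1 (AT5G52640), a heat-inducible cytosolic chaperone gene, had 39.4, 35.8 and 32.6 CPM in the wild type and 55.9, 60.9 and 48.7 CPM in the double mutant. The groups were apart, and the difference passed narrowly (1.53-fold, log2 0.62 ± 0.12, edgeR adjusted p = 0.0494). Its call was lost without any 1 of the red light libraries, with RLE factors, with DESeq2 and under 14 of 21 alternatives in all, with adjusted p up to 0.625. Of 19 heat shock and endoplasmic reticulum chaperone genes 12 were tested. BAG7 and HSP90.1 were called higher and none lower, and all 12 had a positive log2 difference, with a median of 0.149. HSP101 had a log2 difference of 0.26 ± 0.12, BIP2 one of 0.16 ± 0.08 and HSP70 one of 0.15 ± 0.08, and none of the 3 passed. In 5 of the 12, BAG7 and HSP90.1 among them, the mutant libraries were all above the wild type libraries, which 5.69% of all tested genes had. The 7 untested members, mostly small heat shock protein genes, had 0 to 20 counts per red light library.

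**Figure D2:**
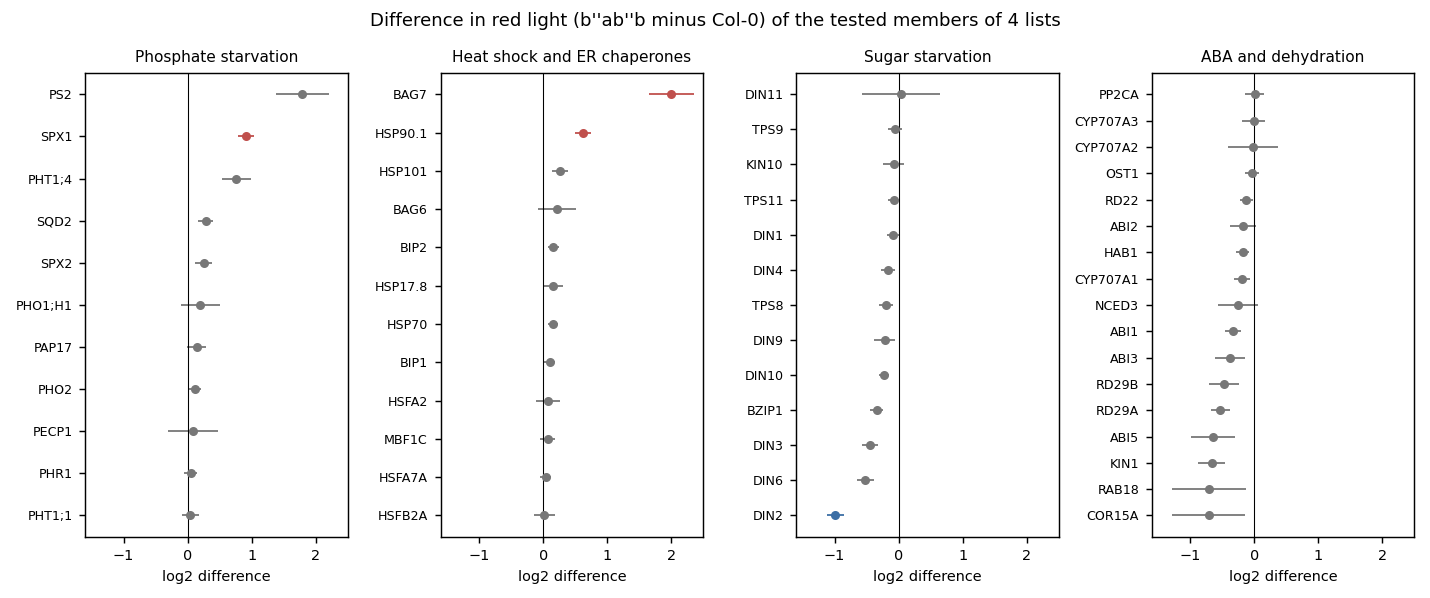
Points give the log2 difference in red light (double mutant minus wild type) of the tested members of 4 lists, and bars its SE in the edgeR fit. Red marks genes called higher, blue genes called lower and grey genes that did not pass; all members of the first 2 lists lie above 0, and all but 1 of each of the others at or below it.

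Of the sugar starvation list 1 gene was called, on the lower side. DIN genes are switched on when seedlings run out of sugar in the dark, and DIN2 codes for a beta-glucosidase. DIN2 (AT3G60140, chromosome 3, 22216540 to 22220824) had 75.9, 63.4 and 71.5 CPM in the wild type and 31.8, 36.0 and 38.9 CPM in the double mutant. Every mutant library was below every wild type library, and the mean fell from 70.3 ± 6.37 to 35.6 ± 3.57 CPM (log2 −0.99 ± 0.13, edgeR adjusted p = 4.93e-04). All 13 listed sugar starvation genes were tested, and DIN2 was the only one called. Their median log2 difference was −0.197, and 12 of them were negative, the exception being DIN11 with at most 7 counts per library. DIN6, an asparagine synthetase gene, had 176, 127 and 158 CPM in the wild type and 102, 115 and 106 CPM in the double mutant. Its groups did not overlap and its log2 difference was −0.52 ± 0.13 (edgeR adjusted p = 0.304). DIN3, for a subunit of branched-chain amino acid breakdown, had a log2 difference of −0.45 ± 0.12 and the factor gene BZIP1 one of −0.34 ± 0.10. Libraries were apart and lower in 4 of the 13, DIN2 among them, which 5.42% of all tested genes were, and in the dark the median was −0.01.

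The 5 genes next in p after the 15 did not pass and are given as values. An edgeR fit on the red light libraries alone called all 5, with adjusted p of 0.00336 to 0.0338. DYL1, a dormancy-associated gene, had 226, 204 and 223 CPM in the wild type and 170, 173 and 178 CPM in the double mutant. HSPRO2, whose protein binds the energy sensor kinase SnRK1, had 82.6, 74.0 and 77.3 against 55.4, 60.1 and 61.2 CPM. SIS, a salt-induced serine-rich protein gene, had 70.6, 69.9 and 64.7 against 51.1, 49.9 and 53.4 CPM. The mutant libraries of these 3 genes lay below all wild type libraries, with log2 differences of −0.33 ± 0.07, −0.41 ± 0.09 and −0.41 ± 0.09 and edgeR adjusted p of 0.134, 0.144 and 0.115. AT1G15330 (log2 −1.15 ± 0.24) and AT2G01422 (2.94 ± 0.61, on at most 6 counts per wild type library) both had an edgeR adjusted p of 0.0925.

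Abscisic acid and dehydration genes had the lowest median of the hormone lists, at −0.247, without a call among the 17 tested of 18. Of these 16 had a negative log2 difference, against a share of 50.3% positive over all tested genes, and 6 had mutant libraries below all wild type libraries, which 5.42% of all tested genes had. RD29A, a dehydration marker, had 75.5, 62.8 and 71.9 CPM in the wild type and 49.9, 39.3 and 56.2 CPM in the double mutant. Those groups were apart, with a log2 difference of −0.53 ± 0.15 (edgeR adjusted p = 0.61). KIN1 had 29.2, 31.7 and 32.6 against 21.5, 11.4 and 25.5 CPM (log2 −0.66 ± 0.21), and the phosphatase gene ABI1 82.8, 79.6 and 90.6 against 65.0, 57.6 and 78.1 CPM (−0.33 ± 0.12). The lowest mutant value of all 3 genes was that of replicate 2. In the dark the median of the list was −0.07.

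The other called genes share no pathway on the lists. QQS (AT3G30720, chromosome 3, 12349047 to 12349933), an orphan gene known only from Arabidopsis thaliana that acts on starch content, had 46, 30 and 59 counts in the wild type and 5 in each double mutant library. The mutant libraries were uniformly near the detection limit, and the wild type to mutant ratio of summed counts was 8.83 (95% exact interval 5.16 to 16.2, counting error only; edgeR adjusted p = 5.89e-04). AT5G35940, a mannose-binding lectin gene, had 12.7, 14.6 and 17.1 CPM in the wild type and 3.43, 3.88 and 4.24 CPM in the double mutant. Its 3.85-fold difference left no overlap (log2 −1.94 ± 0.24, edgeR adjusted p = 2.83e-04). The long noncoding RNA gene AT3G05945 had 52.9, 48.2 and 49.2 CPM in the wild type and 24.0, 23.5 and 24.2 CPM in the double mutant. Replicates of AT3G05945 were tight, and the mutant level was 2.09-fold lower (log2 −1.07 ± 0.11, edgeR adjusted p = 2.72e-05).

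Among the higher genes, AT1G64795, which codes for an uncharacterized protein, had 2, 0 and 3 counts in the wild type and 136, 112 and 119 in the double mutant. The gene was close to absent from every wild type library and plain in every mutant library, and it passed the filter on low counts through the mutant. The ratio of summed counts was 74.9 (95% exact interval 31.8 to 232, counting error only; edgeR adjusted p = 1.12e-11). AT1G64795 (chromosome 1, 24082579 to 24082848, plus strand) lies inside ILA (24064822 to 24083428, minus strand), within the span of 1 of 3 ILA transcripts and over 1 ILA exon. ILA, a homologue of the translation regulator GCN1, had 33.3, 30.1 and 33.9 CPM in the wild type and 49.7, 57.9 and 59.4 CPM in the double mutant. The groups of ILA were apart by 1.71-fold (log2 0.77 ± 0.11, edgeR adjusted p = 9.61e-04), and its call was lost only without wild type replicate 2 and double mutant replicate 3 together (adjusted p = 0.152). Without a stated strand setting, reads of the 2 genes cannot be told apart where they overlap.

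AT1G75945, also of unknown function, had 2, 0 and 3 counts in the wild type and 20, 14 and 23 in the double mutant. It too passed the filter through the mutant, with a ratio of 11.6 (95% exact interval 4.7 to 37.2; edgeR adjusted p = 0.0105). AT3G29970, which codes for a B12D protein, had 21, 16 and 11 counts against 40, 39 and 40 (log2 1.33 ± 0.25, edgeR adjusted p = 0.0364). CDEF1, a cutinase gene, had 132, 119 and 125 CPM in the wild type and 164, 188 and 182 CPM in the double mutant. Mutant libraries were all above the wild type ones for these 3 genes, by 1.42-fold in CDEF1 (log2 0.51 ± 0.10, edgeR adjusted p = 0.0494). Their calls were easily lost: AT1G75945 lost its call under 6 of 20 alternatives (adjusted p up to 0.31), AT3G29970 under 11 of 21 (up to 0.469) and CDEF1 under 13 of 21 (up to 0.883). Over these alternatives the log2 differences stayed positive, at 2.79 to 4.05, 1.06 to 1.57 and 0.45 to 0.56. Leaving out wild type replicate 2 or 3 or double mutant replicate 1 or 3 of the red light groups ended all 3 calls, and so did leaving out the pair of wild type replicate 2 and double mutant replicate 3. The calls of AT3G29970 and CDEF1 also ended without double mutant red replicate 2, wild type dark replicate 3 or double mutant dark replicate 1 or 2, and those of AT1G75945 and CDEF1 without wild type red replicate 1.

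**Figure D3:**
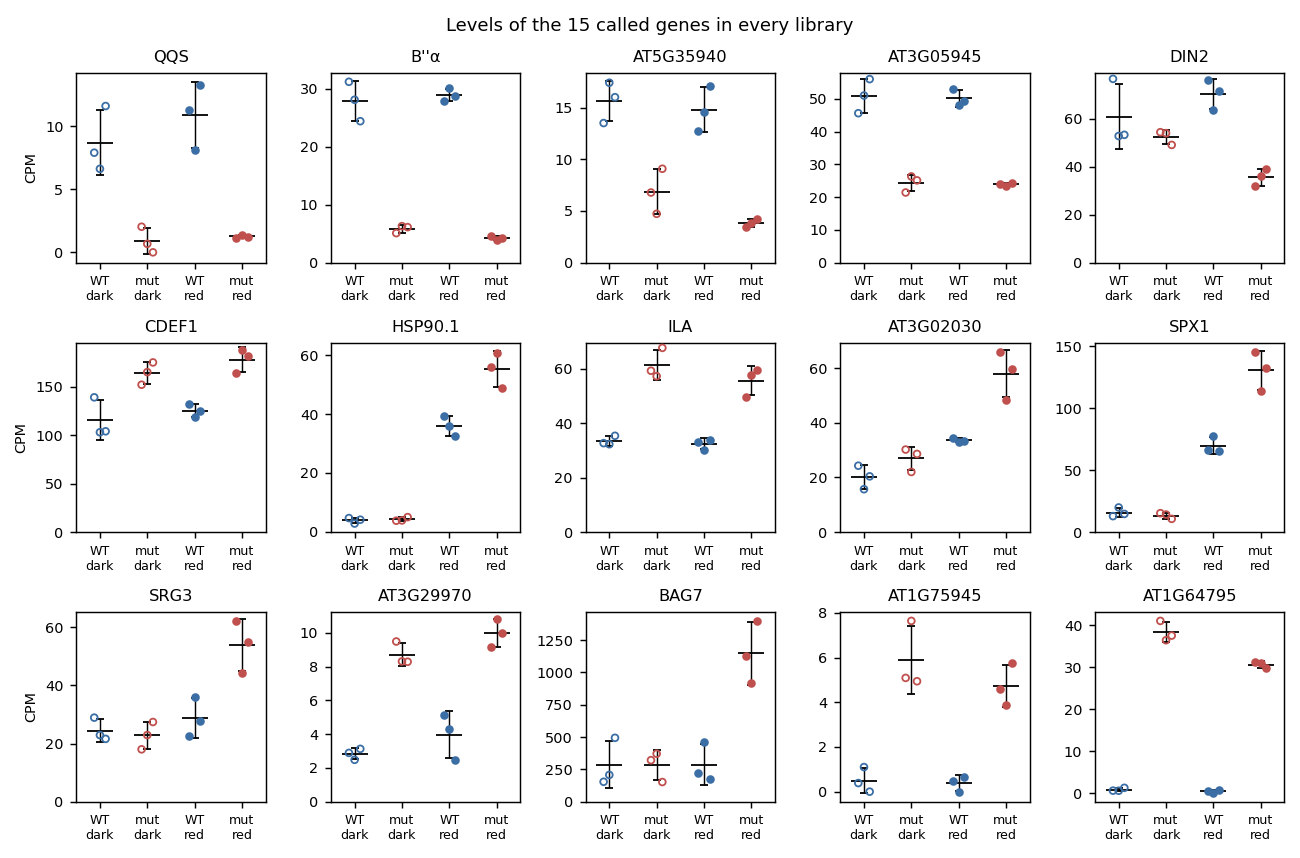
Each panel gives the CPM of 1 of the 15 called genes in all 12 libraries, with wild type in blue, double mutant in red, dark as open and red light as filled points, and the mean ± SD of 3 libraries in black. The mutant stands apart from the wild type in red light in every panel, and in the dark as well in panels such as QQS, ILA and AT1G64795, but not in SPX1, SRG3, DIN2 or BAG7.

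By position, AT3G05945, AT3G29970 and QQS lay within 840 kb of each other (chromosome 3, 11510090 to 12349933), a stretch with 14 tested genes. These 3 genes themselves set the ends of the stretch after they were called, and whether they lie closer than other genes was not tested. On the whole of chromosome 3, 6 of 3664 tested genes were called.

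The dark libraries, whose levels do not enter the red light difference but whose spread enters its test, divided the 15 genes. In the dark 10 genes passed over all genes (0.0541%), 5 in each direction. Of the 15 genes called in red light 12 had the same sign in the dark, which held for 50.9% of all tested genes, and 8 were called there too. In 9 of the 15 the dark libraries did not overlap in the same direction, while 8.81% of all tested genes had dark libraries without overlap in either direction. The 8 were B''α, AT1G64795, AT3G05945, AT5G35940, QQS, ILA, AT1G75945 and AT3G29970. Their log2 differences in the dark were −2.24 ± 0.16 for B''α, −1.04 ± 0.11 for AT3G05945, −3.50 ± 0.49 for QQS and 0.89 ± 0.11 for ILA. For AT3G29970 it was 1.60 ± 0.27, for AT1G64795 5.61 ± 0.26 and for AT1G75945 3.49 ± 0.54. AT5G35940 had −1.15 ± 0.22 in the dark (edgeR adjusted p = 0.0489), smaller than its −1.94 ± 0.24 in red light. AT4G11393 and AT3G05730 were called in the dark and not in red light. CDEF1 had nearly the same difference in the dark (0.50 ± 0.10) and just missed there (edgeR adjusted p = 0.0704).

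A second set of genes had little or no difference in the dark. SPX1 had 12.9, 19.9 and 14.7 CPM in the dark wild type and 15.3, 14.2 and 10.7 CPM in the dark mutant, which overlap. From dark to red light SPX1 rose by 2.16 on the log2 scale in the wild type and by 3.32 in the double mutant. BAG7 had 154, 207 and 494 CPM in the dark wild type and 321, 371 and 152 CPM in the dark mutant. Those ranges overlap almost fully, and from dark to red light the log2 change was 0.02 in the wild type and 2.04 in the double mutant. DIN2 had 76.5, 52.7 and 53.2 against 54.3, 53.9 and 49.0 CPM in the dark, with changes of 0.19 and −0.56 in red light. SRG3 had 28.9, 22.9 and 21.6 against 18.0, 22.9 and 27.4 CPM, and changes of 0.21 and 1.21. HSP90.1 stood at 2.76 to 4.62 CPM in the dark wild type and 3.73 to 4.94 CPM in the dark mutant, with changes of 3.19 and 3.69. Its dark difference was 0.12 ± 0.27, a wide error on 10 to 25 counts per dark library. AT3G02030 belonged to neither set, with a dark difference of 0.39 ± 0.16, overlapping dark libraries and no call there.

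Whether the genotype difference itself differed between red light and dark was tested as an interaction, and no gene passed over all genes with edgeR. At an unadjusted p under 0.05, 613 genes (3.32%) passed. The 15 genes include 5 of these, a count that their choice by the red light difference helps to set, since the interaction contains it. The interaction of SPX1 was 1.16 ± 0.22 on the log2 scale (edgeR adjusted p = 0.491). For BAG7 it was 2.02 ± 0.49, for SRG3 1.01 ± 0.24 and for DIN2 −0.75 ± 0.18, each with an adjusted p of 1. The last of the 5, AT5G35940, which was called in the dark too, had −0.79 ± 0.34 (edgeR unadjusted p = 0.0289). HSP90.1 had 0.50 ± 0.30 and AT3G02030 0.40 ± 0.21, with edgeR unadjusted p of 0.112 and 0.0729. DESeq2 called 1 gene, SPX1 (log2 1.15, adjusted p = 0.0299), with 231 genes at an unadjusted p under 0.05, and limma-voom called 0 with 620. Without wild type dark replicate 1 edgeR called 3 interactions, DIN2 (adjusted p = 0.0313), SPX1 (0.0377) and BAG7 (0.0388).

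**Figure D4:**
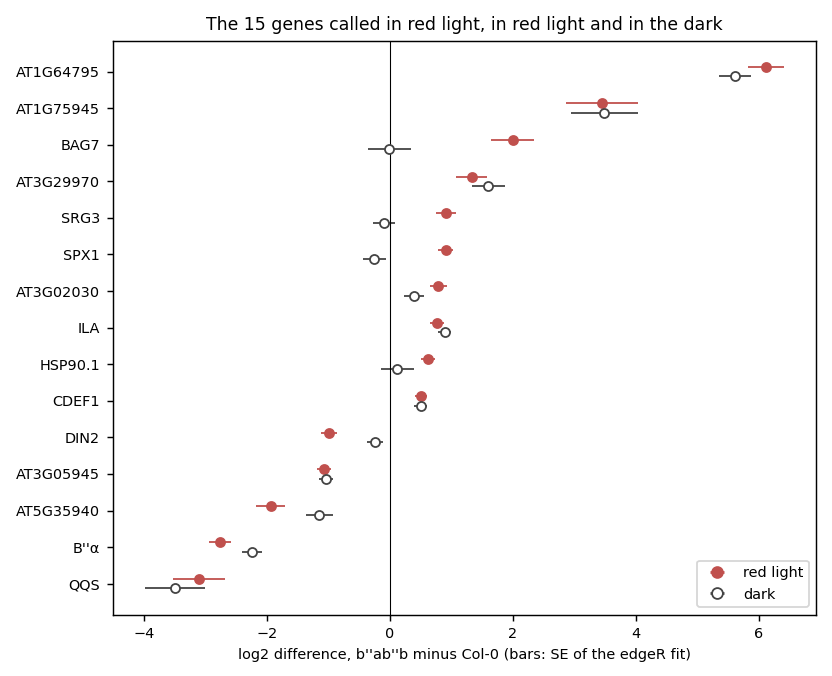
For each of the 15 genes called in red light, the filled red point is the log2 difference (double mutant minus wild type) in red light and the open point that in the dark, with the SE of the edgeR fit as bars. The points lie close together for B''α, AT3G05945, ILA and CDEF1, and apart for BAG7, SRG3, SPX1 and DIN2.

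No well-known gene of the light response passed between the genotypes after red light. All 18 listed were tested, and their median log2 difference was −0.007. HY5, the main factor of greening, had 177, 174 and 176 CPM in the wild type and 150, 180 and 175 CPM in the double mutant. PIF3 had 38.2, 36.6 and 35.7 against 33.4, 36.6 and 33.4 CPM, and PHYA 382, 395 and 351 against 359, 385 and 377 CPM. The groups overlapped for all 3, with log2 differences of −0.06 ± 0.08, −0.10 ± 0.12 and −0.01 ± 0.07. The 18 differences ran from −0.12 ± 0.07 in PORA to 0.19 ± 0.11 in IAA19, an auxin response gene, and only HFR1 had libraries that did not overlap (0.15 ± 0.11). The median SE of a difference over all tested genes was 0.173, and a p that misses the threshold does not show equal levels.

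Genes were also grouped by their response to red light. Red light induced 739 genes at least 2-fold in the mean of both genotypes. Their median log2 difference between the genotypes was −0.02, and 43.7% of them were higher in the mutant. For the 233 genes that red light repressed the median was −0.08, and 42.1% were higher. Of all tested genes 50.3% were higher. These sets were chosen on the same libraries, by the mean response of both genotypes. They held 3 genes called higher, SPX1, HSP90.1 and BAG7, all light-induced, and none called lower. Over all tested genes 0.0541% were called higher and 0.027% lower. BAG7 entered through the double mutant, with a log2 change of 2.04 there and 0.02 in the wild type.

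No list other than the ones above held a called gene. In the lists of light signalling, phytochromes and PIFs had a median of −0.047, PIF kinases and E3 ligase parts −0.018, light signalling regulators −0.049 and genes activated by PIFs 0.007. Their members lowest in p were PIF5 (log2 0.12 ± 0.09), EBF2 (−0.26 ± 0.10), the B-box gene BBX31 (−0.42 ± 0.15) and PAR1 (−0.26 ± 0.11), with edgeR adjusted p of 0.939 or more. In the plastid lists, light-harvesting proteins had 0.033, with 82.6% of 23 genes higher, photosystem subunits and Rubisco 0.025, with 77.8% of 27 higher, and chlorophyll synthesis 0.004. Their quartiles stayed within 0.07 of 0, and their members lowest in p were LHCB1.5 (log2 0.09 ± 0.05), PSBY (0.12 ± 0.08) and PORA. The clock list had a median of −0.012, flavonoid synthesis 0.11 and mevalonate and sterol synthesis −0.016. Lowest in p there were LKP2 (log2 0.32 ± 0.17), MYB75 (−0.45 ± 0.18) and the sterol gene SMT2 (0.14 ± 0.08). Of the HMG-CoA reductase genes, HMG1 had 383, 346 and 345 CPM in the wild type and 342, 355 and 355 CPM in the double mutant, which overlap (log2 −0.03 ± 0.08). Auxin genes had −0.021, gibberellin genes −0.006, brassinosteroid genes −0.004, ethylene and hook genes −0.081, wall loosening genes −0.053 and touch and jasmonate genes −0.148. GA2OX8, which inactivates gibberellin, had a log2 difference of 0.92 ± 0.35, GH3.6 one of −0.20 ± 0.10, XTH24 one of −0.16 ± 0.07 and LOX4 one of −1.19 ± 0.56 on at most 3.15 CPM per library. BR6OX1, which makes brassinosteroid, averaged 13.5 ± 0.847 CPM in wild type and 18.7 ± 1.18 CPM in double mutant libraries, apart but not called (log2 0.47 ± 0.15, edgeR adjusted p = 0.772).

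Markers of stage and cell type were measured beside these groups. The 9 root hair markers summed to 83.2 to 85.3 CPM in the wild type and 87.2 to 110 CPM in the double mutant, with a median log2 difference of 0.224 and none called (lowest in p: PRP3, log2 0.47 ± 0.20). That median was 0.04 without double mutant red replicate 3 and 0.42 without double mutant red replicate 1. Their sums were higher in every mutant library, and their part in the differences above was not tested. The 15 seed reserve markers summed to 2430 to 2740 and 2660 to 2980 CPM, the 9 endodermis markers to 998 to 1090 and 992 to 1020 CPM, and the 10 dividing cell markers to 78.7 to 91.0 and 84.2 to 90.4 CPM. These 3 ranges overlapped and none of their genes was called; lowest in p were ICL (log2 0.14 ± 0.06), ESB1 (−0.15 ± 0.08) and KN (0.16 ± 0.18). Of the seed markers 8 were tested, and the storage protein gene SESA1 had at most 1 count in a red light library.

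**Figure D5:**
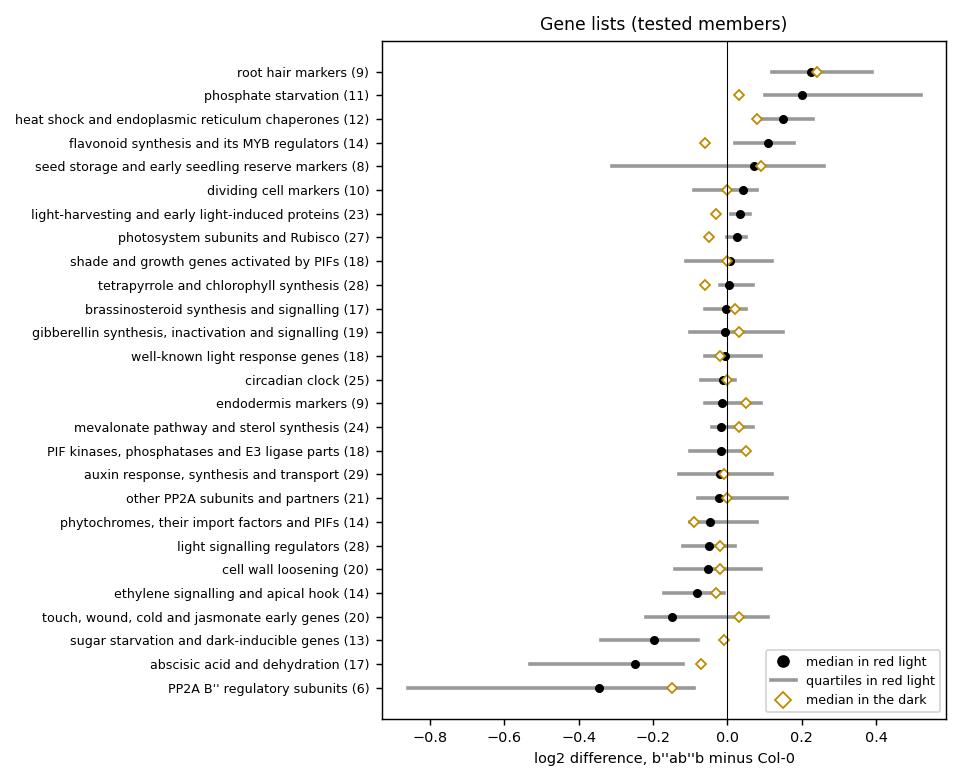
Black points give the median log2 difference (double mutant minus wild type) in red light of the tested members of each list of 5 or more, grey bars their quartiles and open diamonds the median in the dark; the number tested is in brackets. The lists of light response and greening lie near 0. Furthest above it are the root hair, phosphate and chaperone lists. Furthest below it are the B'' subunit, abscisic acid, sugar starvation, and touch and jasmonate lists.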

How the data were processed

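The authors deposited 1 table of whole-number counts, per the labels from 3′ tag libraries of total RNA. Tools named in the submitters' processing notes are FastQC, HISAT2, HTSeq and edgeR, with build TAIR10; the sources used here give no strand setting. Summary lines were left out, and 32548 of 33655 identifiers matched RefSeq TAIR10.1, used for names and positions. Columns were matched to samples by title. The test was edgeR 4.0.16 (R 4.3.3) with TMM factors, filterByExpr (minimum count 10), a quasi-likelihood fit over 12 libraries and Benjamini-Hochberg adjustment, checked on simulated data. In the simulated data the red light test found 44.8% of 1.5-fold, 72.4% of 2-fold and 93.9% of 4-fold changes. SE is the log2 difference divided by the square root of F. CPM use TMM-scaled totals. Replicates in red light differed beyond sampling noise (chi-square over degrees of freedom at least 1.71). Alternatives were DESeq2 1.42.0, limma-voom (limma 3.58.1), RLE factors, other filters, a replicate block, left-out libraries and only red light libraries. Light-induced and light-repressed genes were called in the mean response of both genotypes with a log2 change of at least 1. The rule names the targeted genes, all called genes, the next 5 by p, neighbours of the targeted genes, the member lowest in p of each list without a call and well-known light genes; other named genes, and the overlap and motif searches, were chosen after values were seen. Members and all 28 lists were chosen with earlier results of these data known. Figures used python 3.11.15 and matplotlib 3.10.9.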

Additional observations from a re-analysis of the deposited data

How the results depend on the processing

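B''α, AT1G64795, AT3G05945, AT5G35940, SPX1, DIN2 and QQS were called under all 21 alternatives, and no called gene changed direction under any of them; the B''β difference stayed negative and uncalled in the 19 alternatives that tested it. The number of genes higher was 29 without a filter on low counts, 19 with only the 6 red light libraries in the fit, 21 without wild type dark replicate 1 and double mutant dark replicate 3 (chosen after seeing the data), and 4 without wild type red replicate 2 and double mutant red replicate 3; with 1 library left out it was 3 to 11. The number lower was 39, 24 and 25 under the first 3 of these and 5 to 7 with 1 library left out. The larger counts of the latter 2 fits came with a lower common biological coefficient of variation (0.0654 and 0.0624 against 0.0875), and 41 genes were called by both. Interactions numbered 1 with DESeq2, 28 without the filter, 2 without the 2 dark libraries and 0 to 3 with 1 library left out. With 1 library left out the median of light-induced genes ran from -0.04 to -0.00, the latter without wild type red replicate 3, and that of light-repressed genes from -0.11 to -0.07; it was -0.12 without wild type red replicate 2 and double mutant red replicate 3. Over all alternatives the list medians ran from -0.39 to -0.09 for B'' subunits, 0.03 to 0.18 for flavonoid genes and -0.12 to 0.21 for seed markers. Except where said, the cause was not tested. With the replicate number as a block, 6 genes were higher and 5 lower, with SRG3, AT3G29970, CDEF1 and HSP90.1 no longer called. Same-numbered red light libraries of the genotypes did not deviate together (r = 0.0139, -0.0172 and -0.0419). Dark libraries were not compared in this way, so whether the numbers pair the samples is not settled. Genes with few counts, B''β among them, limit what this depth can show.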

Other observations

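A fit on the 6 red light libraries alone called 43 genes, all 15 of the main fit among them. Its other calls held further members of the groups above: DIN6 (adjusted p = 0.00115), DIN3 (0.0221) and RD29A (0.00906) on the lower side with edgeR, and PS2 (0.0219) on the higher side. Outside the lists, and named after their values were seen, G3Pp1, a glycerol-3-phosphate permease gene known from phosphate shortage, had 74.0, 81.3 and 71.0 CPM in the wild type and 103, 89.7 and 106 CPM in the double mutant (log2 0.41 ± 0.09, edgeR adjusted p = 0.0219 in that fit and 0.314 over all 12 libraries). The sugar transporter gene STP1 had 301, 254 and 293 CPM in the wild type and 223, 231 and 227 CPM in the double mutant (log2 -0.32 ± 0.07, edgeR adjusted p = 0.0237 in that fit and 0.854 over all 12 libraries). The late embryogenesis gene ECP63 had 21, 46 and 17 counts in the wild type and 0, 1 and 15 in the double mutant, with wild type replicate 2 highest in ECP63 and in ATOEP16-2 (14, 51 and 12 against 2, 5 and 9).

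Apart from the called genes, 4 genes with at least 100 counts in a red light library had 1 library at 4 or more times the next highest. They were AT5G44060 (wild type replicate 1, 18.4 times), AT5G44410 (double mutant replicate 1, 7.36 times), AT5G62290 (wild type replicate 3, 5.21 times) and AT5G62440 (double mutant replicate 3, 4.89 times). All are on chromosome 5, and the fit on the red light libraries called AT5G44060, AT5G44410 and AT5G62290, each on 1 library.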
